A study of Mus musculus with 6 samples.

Results

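Keratins and biliary epithelial genes, 10 in all, were followed through droplet single-cell RNA sequencing of mouse liver: the keratins Krt7, Krt8, Krt18 and Krt19, the adhesion protein Epcam, the transcription factor Sox9, the tight junction claudins Cldn3 and Cldn7, the chloride channel Cftr and the annexin Anxa4. They were chosen by name and make up 10 of the 19349 gene symbols listed in every count table. The libraries came from liver non-parenchymal cells, a preparation meant to leave out hepatocytes, of male C57BL/6J mice that entered the study at 8 weeks of age and ate a high-fat diet for 24 weeks to induce nonalcoholic steatohepatitis (NASH). In the last 8 weeks the mice received vehicle (DMSO; 3 libraries) or ginkgetin, a biflavone of Ginkgo biloba leaves, at 10 mg/kg/day by the intragastric route (3 libraries). No chow-fed library was analysed here, so that every comparison is between NASH livers on the same diet, and nothing in the labels ties a library to a single animal. P-values therefore measure the spread between libraries, which may be technical in part.

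Bile ducts are lined by cholangiocytes, which modify bile and hold their shape through intermediate filaments. Filaments of simple epithelia are built from pairs of 1 type II keratin (Krt7 or Krt8) and 1 type I keratin (Krt18 or Krt19), and hepatocytes are known to use Krt8 and Krt18 alone, whereas duct cells add Krt7 and Krt19. Epcam, Sox9, Cldn7 and Cftr are classical duct genes of the liver, and Anxa4 is a calcium-dependent membrane-binding protein of epithelia that other cells also make.

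The 6 libraries held 3577 to 8119 cell barcodes and 13128697 to 61796882 unique molecular identifiers (UMIs, each the count of 1 captured RNA molecule). Of 33168 barcodes, 27544 passed a filter of 250 to 5000 genes and under 5% mitochondrial UMIs. Replicate 3 of both groups stood apart from replicates 1 and 2: 946 symbols had UMIs only in the latter and 2253 only in the former, and most clusters of immune and endothelial cells came from 1 of these barcode sets. Pairs of libraries shared 0 to 85 barcodes. Cells were clustered and named without the 10 genes. The single cluster called cholangiocyte-like (557 cells) had all 12 fixed cholangiocyte markers and was led by Clu, Spp1, Tm4sf4, Cp and Tspan8, and the single cluster called hepatocyte-like (563 cells) had all 11 hepatocyte markers. Levels are given as CPM (the UMIs of a gene, summed over the cells of a class in a library, scaled to the same total in every sum), and a gene was called changed at an adjusted p under 0.05 and a fold over 2.

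Krt8 and Krt18, the partner keratins of simple epithelia, lie 23697 bases apart on chromosome 15. In the GRCm38 annotation Krt8 spans chr15:101996698-102004482 on the minus strand and Krt18 spans chr15:102028180-102032027 on the plus strand. Krt7 lies on the same chromosome at chr15:101411043-101430313, whereas Krt19 lies at chr11:100140810-100148665. Promoter sequences of Krt8 (chr15:102004293-102004592, minus strand) and Krt18 (chr15:102027966-102028265, plus strand) are shown, as RefSeq gives them on GRCm38.p6, because both genes were lower without overlap in the ginkgetin libraries in cholangiocyte-like and in hepatocyte-like cells. Each runs 5′ to 3′ from 250 bases before to 50 bases after the annotated start, with matches to the TATA box TATAAA, the GC box GGGCGG or the AP-1 site TGANTCA, searched on both strands, in capitals.
Krt8: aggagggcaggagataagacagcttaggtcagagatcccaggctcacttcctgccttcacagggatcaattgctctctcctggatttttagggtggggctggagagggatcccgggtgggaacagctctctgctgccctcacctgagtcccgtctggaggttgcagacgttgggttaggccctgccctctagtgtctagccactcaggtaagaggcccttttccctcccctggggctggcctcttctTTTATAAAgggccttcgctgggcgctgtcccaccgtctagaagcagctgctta
Krt18: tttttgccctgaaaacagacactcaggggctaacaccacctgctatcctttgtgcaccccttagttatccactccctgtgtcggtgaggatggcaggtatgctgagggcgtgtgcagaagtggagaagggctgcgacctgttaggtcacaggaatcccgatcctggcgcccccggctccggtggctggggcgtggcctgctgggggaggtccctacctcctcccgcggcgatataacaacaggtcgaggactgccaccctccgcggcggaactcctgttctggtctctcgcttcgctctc
The Krt8 window held TATAAA on both strands, at bases 250 to 255 of the window and, overlapping it, at bases 248 to 253, while the Krt18 window held none of the 3 motifs. Over all 32851 promoters of that table, 13.6% held TATAAA, 35.7% GGGCGG and 7.81% TGANTCA.

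All 10 genes were detected in cholangiocyte-like cells, and 9 of them had most of their UMIs there in each group. Cholangiocyte-like cells were 557 of 27544 kept cells (2.02%), yet they held 95.2% of the Cldn7 UMIs, 94.8% of the Sox9 UMIs, 92.6% of the Cldn3 UMIs and 90% of the Cftr UMIs of all kept cells. The share was 81.8% for Krt8, 81.1% for Krt19, 80.3% for Krt18, 78.4% for Epcam and 70.6% for Krt7. Anxa4 stood at 29.6% over all libraries, with 48.9% in macrophage-like cells, but the groups differed in this: in vehicle libraries cholangiocyte-like cells held 22.9% and macrophage-like cells 60.8% of its UMIs, against 50.9% and 11.1% in ginkgetin libraries, in which macrophage-like cells were a smaller share of cells. Cftr, on few UMIs, was at 96.8% (90 of 93) in vehicle and 76.6% (36 of 47) in ginkgetin libraries.

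**Figure D1:**
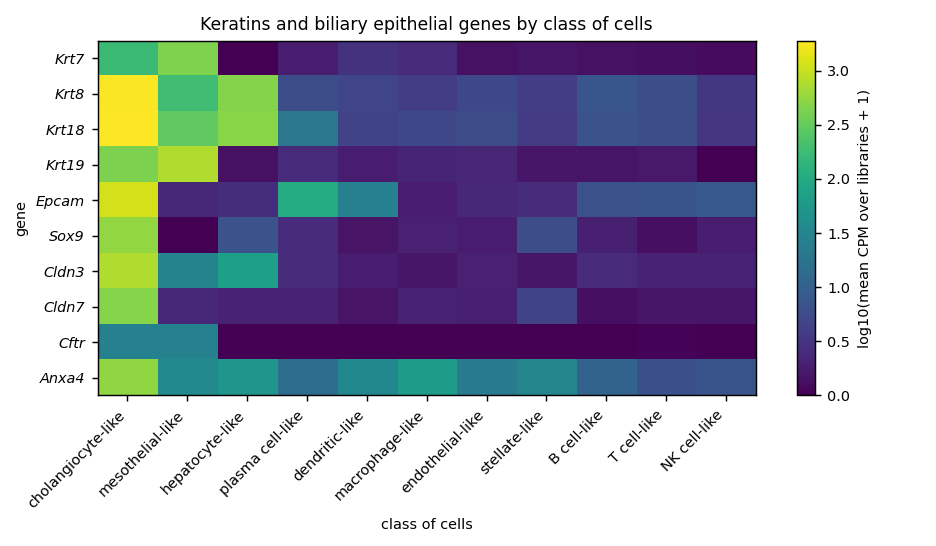
Mean level of each gene over libraries, as log10 of CPM + 1 (colour), by class of cells (columns). The cholangiocyte-like column is high in every row but Cftr. Within the mesothelial-like column the 4 keratins are the highest rows. Within the hepatocyte-like column Krt8 and Krt18 are the highest, with Cldn3 and Anxa4 below them. The mesothelial-like column exceeds the cholangiocyte-like column only for Krt7, Krt19 and, by little, Cftr.

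The order of levels differed from gene to gene. Krt8 averaged 1817 ± 815 CPM (SD, n = 6) in cholangiocyte-like cells, followed by 459 ± 195 (SD, n = 5) in hepatocyte-like cells, and the ranges of these classes did not overlap. Mesothelial-like cells came next at 184 ± 98.7 (SD, n = 6), overlapping the hepatocyte-like range, and every other named class averaged at most 6.59 CPM. Krt18 followed the same order with 1888 ± 727, 498 ± 299.7 and 295 ± 98.3. For Krt19 and Krt7, which mark ducts within the liver parenchyma, mesothelial-like cells ranked first (767 ± 337 and 433 ± 156 CPM) and cholangiocyte-like cells second (425 ± 158 and 171 ± 70.3), and the ranges of these classes overlapped. That first rank rests on 52 cells, of which 48 (92.3%) were among the 5% of kept cells with the highest Scrublet scores, a computed likeness to pairs of cells read as 1, against 24 of 557 cholangiocyte-like cells (4.31%). The next class was at 1.47 CPM for Krt19 and 2.02 CPM for Krt7, below both. Cftr overlapped between these classes, at 26.9 ± 25.7 CPM in mesothelial-like cells (11 UMIs in all, none in 2 of the 6 libraries) and 26.1 ± 16.7 CPM in cholangiocyte-like cells.

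Because deeper cells show more genes, shares of cells with a UMI were also computed after each cell was thinned to 1000 UMIs. Between 64.3% and 87.9% of cholangiocyte-like cells per library then had a UMI of Krt18, 54.8% to 80.4% of Krt8, 58.5% to 77.6% of Epcam and 46.7% to 58.6% of Cldn3. Krt19 was seen in 25% to 38.4% and Krt7 in 9.63% to 22.4%, against Cftr in at most 2.40%. Without thinning, Krt19 was seen in 72.4% to 92.8% of cells per library and Cftr in 3.95% to 34.5% of cells per library. A median of 4 of the 10 genes was detected per thinned cholangiocyte-like cell in each of the 6 libraries. As a background, 1.05% to 4.79% of thinned T cell-like cells, a type not expected to make these genes, had a UMI of any of them.

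Co-detection of Epcam, Krt7 and Krt19 followed the class. At full depth, 502 of 557 cholangiocyte-like cells (90.1%) had UMIs of 2 or more of these 3 genes. Outside the class this held for 52 of 26987 cells, of which 36 were mesothelial-like (36 of 52, 69.2%), 5 dendritic-like, 5 plasma cell-like, 5 unnamed and 1 macrophage-like. No hepatocyte-like, endothelial-like, stellate-like, T cell-like, B cell-like or NK cell-like cell was among them.

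In cholangiocyte-like cells, Krt8, Krt18, Krt19, Krt7, Epcam and Cldn3 were lower in every ginkgetin library than in every vehicle library, Sox9 was higher in every one, and Cldn7, Cftr and Anxa4 overlapped between groups. Thus 6 of 10 were lower without overlap, beside 11.8% of the 7928 genes tested, and 1 was higher without overlap, beside 8.2%. None of the 10 passed the test of edgeR's quasi-likelihood fit, in which 14 genes (0.177%) were called. The 10 genes had a median log2 fold of -0.57, ginkgetin over vehicle, against 0.01 for all genes tested, and 9 of 10 were below 0, as were 49.5% of all genes.

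**Figure D2:**
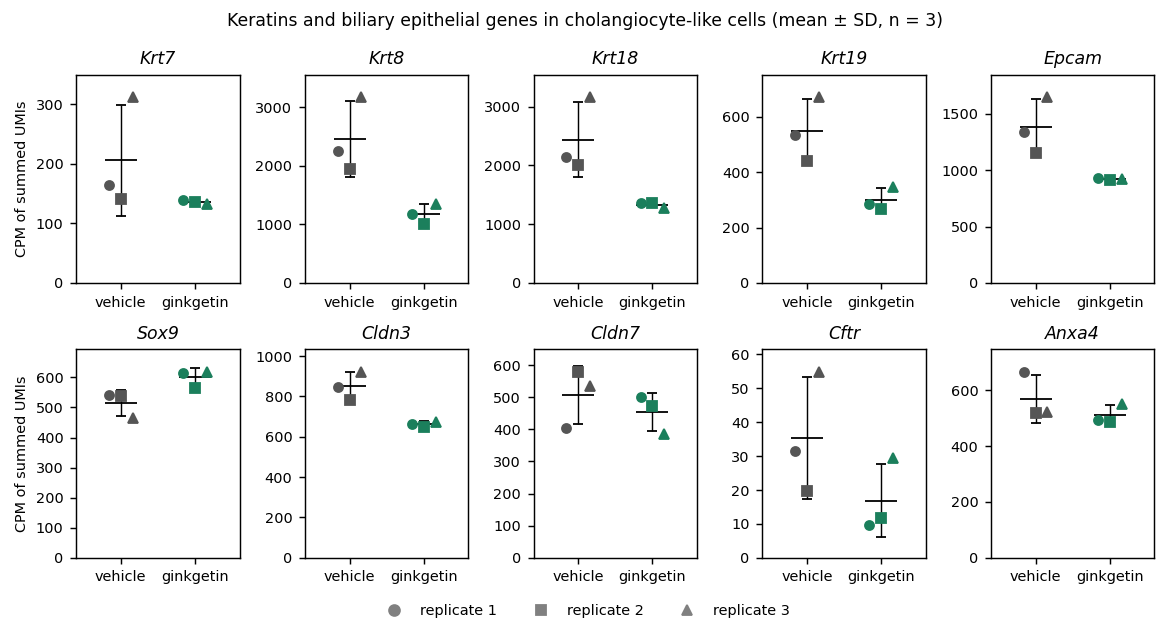
CPM of each gene in cholangiocyte-like cells, with 1 point per library (3 vehicle, 3 ginkgetin; symbols give the replicate number), the mean as a line and the SD as a bar. Krt8 lies at 1938 to 3174 in vehicle and at 1008 to 1349 in ginkgetin libraries, and Sox9 is the only gene that is higher without overlap in ginkgetin libraries.

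Krt8, the type II partner of the simple epithelial pair, stood at 2254, 1938 and 3174 CPM in the vehicle libraries (replicates 1 to 3, the order used throughout) against 1182, 1008 and 1349 CPM in the ginkgetin libraries. Even the lowest vehicle library exceeded the highest ginkgetin library, and vehicle replicate 3 stood highest. The log2 fold was -1.04 (SE 0.28, edgeR adjusted p = 0.202). Krt18, its type I partner, was at 2144, 2015 and 3168 CPM against 1363, 1356 and 1282 CPM, with a log2 fold of -0.85 (SE 0.28, edgeR adjusted p = 0.268). The 3 ginkgetin libraries lay close together, whereas vehicle replicate 3 was again the highest. The 2 genes are made in near-equal amounts, and Krt8 was 51.2%, 49.0% and 50.05% of their joint UMIs in vehicle libraries and 46.4%, 42.6% and 51.3% in ginkgetin libraries.

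Krt19, the duct partner without a tail domain, was at 535, 441 and 673 CPM in vehicle and 286, 267 and 347 CPM in ginkgetin libraries (log2 fold -0.86, SE 0.24, edgeR adjusted p = 0.216). Krt7 was at 165, 141 and 313 CPM against 139, 137 and 132 CPM, so that the groups were parted by a narrow gap and vehicle replicate 3 alone was far above it (log2 fold -0.57, SE 0.31, edgeR adjusted p = 0.458). Without vehicle replicate 3 the log2 fold of Krt7 was -0.17. Krt7 and Krt19 together were 12.8% to 13.7% of the UMIs of the 4 keratins in vehicle and 14.3% to 15.4% in ginkgetin libraries, higher without overlap (exact permutation test, two-sided, p = 0.1, the smallest that 3 against 3 can give, adjusted p = 0.167 over 5 measures tested this way).

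Epcam, a surface glycoprotein of epithelia, was at 1344, 1153 and 1652 CPM in vehicle libraries and at 929, 914 and 926 CPM in ginkgetin libraries (log2 fold -0.56, SE 0.24, edgeR adjusted p = 0.374). Cldn3, a barrier-forming claudin, was at 848, 783 and 923 CPM against 665, 649 and 675 CPM (log2 fold -0.34, SE 0.22, edgeR adjusted p = 0.533). For both genes the ginkgetin libraries lay close together and all under the vehicle range. Cldn7 was at 406, 579 and 535 CPM against 499.6, 472 and 387 CPM, and its groups overlapped (log2 fold -0.13).

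Sox9, the transcription factor that marks duct cells from the fetal duct plate on, was at 542, 539 and 465 CPM in vehicle and 616, 566 and 619 CPM in ginkgetin libraries. Every ginkgetin library was above every vehicle library, by a small gap, and the log2 fold was 0.24 (SE 0.22, edgeR adjusted p = 0.660). Cftr, the apical chloride channel of duct cells, had only 126 UMIs in the class, with 31.5, 19.7 and 54.9 CPM against 9.53, 11.7 and 29.4 CPM (log2 fold -1.03, SE 0.48, edgeR adjusted p = 0.400). Ginkgetin replicate 3 reached into the vehicle range. The log2 fold was -1.58 without that library and -0.64 without vehicle replicate 3. Anxa4 was at 667, 519 and 522 CPM against 494, 487 and 551 CPM, with overlap (log2 fold -0.14).

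Same-numbered libraries deviated together from their group means, but replicates 1 and 2 did so as strongly when crossed (correlations are given with the methods). Replicate 3 thus stood apart from the others. Deviations from a group mean cancel out within the group, so these correlations cannot tell whether replicates 1 and 2 are paired by number. With the replicate number as a block, 191 genes (2.41%, against 14) were called in cholangiocyte-like cells. None of the 10 was among them: Krt19 had an edgeR adjusted p of 0.053 and Krt8 of 0.056 under the block, with log2 folds of -0.84 and -1.02. With the barcode set (replicate 3 against replicates 1 and 2) as the block, Krt8 was called (log2 fold -1.02, edgeR adjusted p = 0.022), beside 2.55% of the genes tested, and Krt19 had an adjusted p of 0.022 with a fold under 2. DESeq2 also called Krt8 (log2 fold -1.07, adjusted p = 0.00064), beside 0.54% of genes. Within replicates 1 and 2, the CPM means of Krt8 gave a log2 ratio of -0.94, and within the single pair of replicate 3, -1.23. Krt18 gave -0.61 and -1.30. Across the 15 alternatives, the log2 fold of Krt8 ran from -1.19 to -0.84 and its adjusted p from 0.00064 to 0.706.

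Thinned cholangiocyte-like cells had on average 4.21, 3.90 and 5.33 UMIs of Krt8 and Krt18 together per 1000 UMIs in vehicle libraries and 2.74, 2.37 and 2.61 in ginkgetin libraries. Both genes were seen in 64.0%, 64.5% and 67.2% of vehicle cells against 48.7%, 42.2% and 55.4% of ginkgetin cells. Neither measure overlapped between groups (exact permutation test, two-sided, p = 0.1 for each, the smallest that 3 against 3 can give, adjusted p = 0.167 over 5 such measures). The median depth of the class before thinning was 8699, 6715 and 11969 UMIs in vehicle and 5520, 5866 and 12706.5 UMIs in ginkgetin libraries.

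Cell type markers differed between the same sums. The summed level of the 12 cholangiocyte markers used for naming was 48154 to 72229 CPM in vehicle and 38268 to 43008 CPM in ginkgetin libraries, without overlap. The 8 endothelial markers summed to 56.4 to 104 CPM in vehicle and 166 to 842 CPM in ginkgetin cholangiocyte-like cells, also without overlap. Hepatocyte, macrophage and T cell markers overlapped. Leaving out the 167 of 557 cells with a UMI of Ptprc, Kdr or Clec4f (markers of leukocytes, endothelium and Kupffer cells; 70 of the 135 cells of ginkgetin replicate 2 were among them) left the log2 fold of Krt8 at -1.06. The part of these marker differences in the keratin values was otherwise not tested.

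None of the 14 genes called in this class was a keratin, claudin or annexin. Of these, 11 rose with ginkgetin (Insig1, Lss, Hmgcs1, Idi1, Dhcr7, Msmo1, Fdps, Cyp51, Fdft1, Sqle and Scd2) and 3 fell. Insig1, which holds the sterol sensor in the endoplasmic reticulum, rose from 14.1, 27.1 and 18.3 CPM to 172, 382 and 191 CPM (log2 fold 3.69, SE 0.42, edgeR adjusted p = 0.011). Lss, the lanosterol synthase, was at 5.81 to 7.63 CPM in vehicle and 55.3 to 82.4 CPM in ginkgetin libraries (log2 fold 3.25), and Hmgcs1, an early enzyme of the mevalonate pathway, at 38.1 to 58.0 CPM against 307 to 632 CPM (log2 fold 3.15). Il1rn, the interleukin-1 receptor antagonist, fell from 72.7 to 80.8 CPM down to 1.91 to 14.7 CPM (log2 fold -3.11, edgeR adjusted p = 0.017), Mmp7, a matrix protease of injured ducts, from 123 to 164 CPM down to 16.0 to 20.6 CPM (log2 fold -2.91, adjusted p = 0.0039), and Gc, the vitamin D-binding protein, from 372 to 589 CPM down to 57.2 to 86.4 CPM (log2 fold -2.66, adjusted p = 0.0098). No gene was called when vehicle replicate 1 or 2 or ginkgetin replicate 1 or 2 was left out, and 10 and 14 were called without replicate 3 of vehicle and of ginkgetin.

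Related gene lists were counted in the same fit. Of 10 tested duct expansion markers, 1 (Mmp7) was called, beside 0.177% of all genes tested, with 5 above and 5 below 0 (49.5% of all genes were below 0) and a median log2 fold of -0.11. None was called among 2 tested other keratins (median -0.12), 8 desmosome and keratin linkers (0.19), 17 tight and adherens junction genes (0.11), 14 biliary and epithelial transcription factors (0.18), 14 ductal transport genes (0.50) and 6 annexins (-0.22), beside 0.01 for all genes. The other keratin nearest to the threshold was Krt10, at 27.4, 30.8 and 30.5 CPM against 26.7, 22.4 and 20.6 CPM (log2 fold -0.33). Dsp, which anchors keratin filaments to desmosomes, had a log2 fold of 0.60 and overlapping groups. Cldn4 was at 61.4, 141 and 285 CPM against 32.4, 36.3 and 61.8 CPM (log2 fold -1.87, edgeR adjusted p = 0.211), whereas Cldn10 was at 19.1, 13.6 and 6.10 CPM against 57.2, 42.7 and 27.9 CPM (log2 fold 1.65, edgeR adjusted p = 0.200).

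Among ductal transport genes, Slc10a2, the apical bile acid transporter, was at 48.1, 40.7 and 48.8 CPM in vehicle and 9.53, 10.7 and 19.1 CPM in ginkgetin libraries (log2 fold -1.78, edgeR adjusted p = 0.072), and Slc4a2, the chloride and bicarbonate exchanger, at 32.4, 25.9 and 18.3 CPM against 40.0, 48.0 and 76.5 CPM (log2 fold 1.08). Elf3, an epithelial ETS factor, and Foxa3 differed in opposite directions (log2 folds -0.83 and 0.88), each without overlap. Anxa2 and Anxa3, relatives of Anxa4, had log2 folds of -0.98 and -1.52 without overlap, neither past the test.

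Hepatocyte-like cells remained in the preparation in unequal number, with 46, 105 and 226 cells in the vehicle libraries against 0, 12 and 174 in the ginkgetin libraries. Ginkgetin replicate 1 thus gave no value, and replicate 2 rests on 12 cells. Krt7 had no UMI in the 563 cells, Krt19 had 1 and Epcam had 4, whereas Krt8 had 1259 and Krt18 had 1392. Krt7 and Krt19 together were 0% to 0.221% of the UMIs of the 4 keratins. Only Krt8, Krt18, Cldn3 and Anxa4 were high enough to be tested, and none was called, beside 0% of 4103 genes (604 at an unadjusted p under 0.05 by edgeR, and 97 called by DESeq2).

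**Figure D3:**
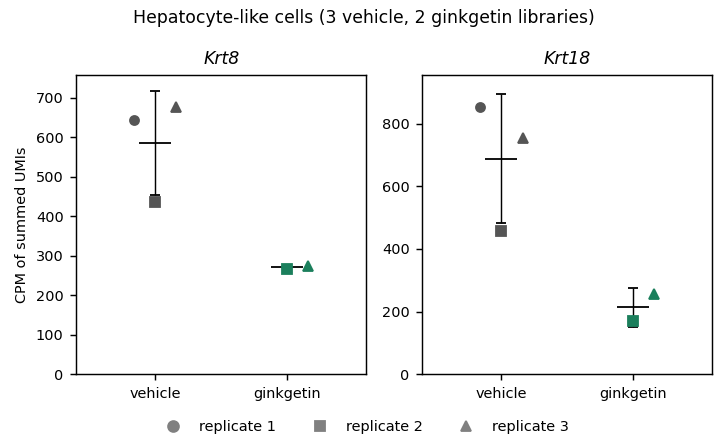
CPM of Krt8 and Krt18 in hepatocyte-like cells of 3 vehicle and 2 ginkgetin libraries, with 1 point per library, the mean as a line and the SD as a bar. Both ginkgetin libraries, at 267 and 274 CPM of Krt8 and 170 and 256 CPM of Krt18, lie below the 3 vehicle libraries.

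Krt8 was at 643, 435 and 677 CPM in vehicle libraries and 267 and 274 CPM in ginkgetin replicates 2 and 3 (log2 fold -1.25, SE 0.34, edgeR adjusted p = 0.245). Krt18 was at 854, 457 and 753 CPM against 170.0 and 256 CPM (log2 fold -1.79, SE 0.42, edgeR adjusted p = 0.245). Both were lower in ginkgetin libraries without overlap, beside 17.5% of the genes tested. The replicate block called 176 genes (4.29%), with Krt18 at an edgeR adjusted p of 0.052 and Krt8 at 0.251. The barcode-set block and DESeq2 called Krt18 (adjusted p = 0.022 and 0.0078), and DESeq2 also called Krt8 (adjusted p = 0.024), beside 3.24% and 0.716% of all genes tested by the barcode-set block and by DESeq2. The fit with no gene filter called both (Krt18 at an edgeR adjusted p of 0.0027, Krt8 at 0.043), beside 1.44% of genes. In all, 3 of 14 alternatives called Krt18 and 2 of 14 called Krt8. Endothelial markers summed to 37.6 to 215 CPM in vehicle and 1232 to 2113 CPM in ginkgetin hepatocyte-like cells, and B cell and plasma cell markers did not overlap either. The highest Scrublet scores took 21 of 46 cells (45.7%) of vehicle replicate 1, where Krt18 was highest, 16 of 105 (15.2%) of vehicle replicate 2 and 5 of 226 (2.21%) of vehicle replicate 3, against 0 of 12 and 3 of 174 (1.72%) in ginkgetin replicates 2 and 3. Without vehicle replicate 1 the log2 folds were -1.70 for Krt18 and -1.28 for Krt8. Without the 88 of 563 cells that had a UMI of Ptprc, Kdr or Clec4f they were -1.70 and -1.32, neither called (edgeR adjusted p = 0.389 and 0.375). The part of the remaining marker differences was not tested. Cldn3 was at 32.8, 41.5 and 57.8 CPM against 194 and 20.7 CPM, its direction resting on ginkgetin replicate 2 (log2 fold 0.67, and -1.48 without that library).

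Of the related lists, the annexins were nearest to the threshold in this class, with Anxa5 at 695, 457 and 735 CPM against 170.0 and 199 CPM, and Anxa2 at 296, 206 and 290 CPM against 72.9 and 28.5 CPM (edgeR adjusted p = 0.201 for each). Aqp1, a water channel of duct and endothelial cells, was at 46.9, 0 and 38.8 CPM against 583 and 279.6 CPM (edgeR adjusted p = 0.275). Endothelial markers were also higher in the ginkgetin sums, and their part in the Aqp1 values was not tested. Tnfrsf12a, the TWEAK receptor, had 26.7 to 32.8 CPM in vehicle and no UMI in ginkgetin hepatocyte-like cells (edgeR adjusted p = 0.245). The 41179 UMIs of ginkgetin replicate 2 in this class are too few to show an absence at that level. The absence thus rests on replicate 3, with 386263 UMIs.

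Mesothelial-like cells, the flat epithelium of the liver capsule, were few (52 cells, 5 to 14 per library), and were set apart after re-clustering a cluster led by fibroblast genes. They had all 7 mesothelial markers. In this class the highest Scrublet scores took all cells of the vehicle libraries and of ginkgetin replicate 1, and the 4 cells left had 6 UMIs of Krt7, 18 of Krt19, 2 of Krt8 and 5 of Krt18 in 23231 UMIs. Macrophage markers summed to 1131 to 4735 CPM in the vehicle and 53.9 to 194 CPM in the ginkgetin mesothelial-like sums. Stellate markers, which include genes that fibroblasts share, summed to 3164 to 9712 CPM and exceeded the summed mesothelial markers (2595 to 7265 CPM) in 5 of the 6 libraries, with Lrat and Reln at 0 in each library. The part of doublets or of other cells in the values below was not tested. Krt19 was at 483, 458 and 748 CPM in vehicle and 1101, 557 and 1254 CPM in ginkgetin libraries, and Krt7 at 483, 444 and 503 CPM against 537, 121 and 512 CPM, both overlapping. Sox9 had no UMI in them, Epcam and Cldn7 had 1 each, and Krt7 and Krt19 made up 60.5% to 66.3% of the 4 keratins' UMIs in vehicle and 75.8% to 81.9% in ginkgetin libraries. No test across genes was run on so few cells. The remaining 53 cells of that cluster, which carried Dpt and Clec3b, had 0 to 13.04 CPM of Krt7 and no more than 3.92 CPM of Krt19.

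**Figure D4:**
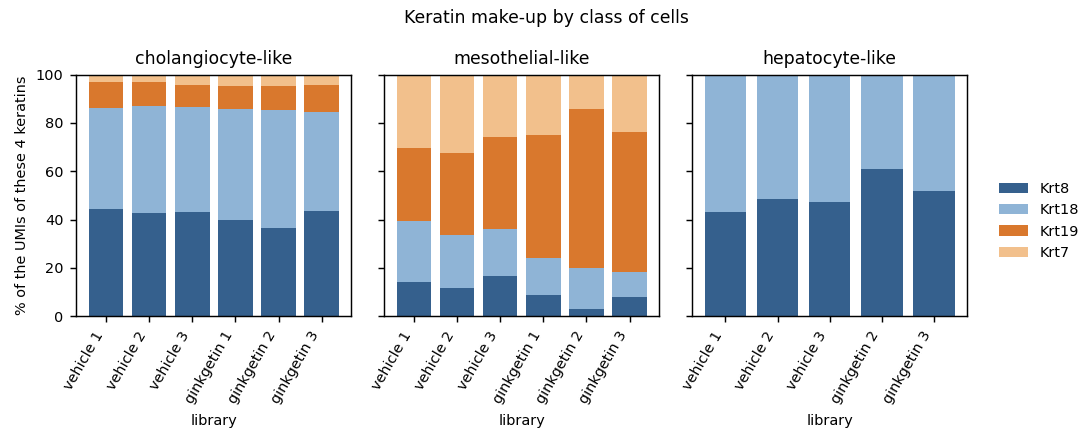
Percent of the UMIs of Krt8, Krt18, Krt19 and Krt7 taken by each gene, per library (bars), in 3 classes of cells; the mesothelial-like bar of ginkgetin replicate 2 rests on 35 UMIs. Krt7 and Krt19 together take 12.8% to 15.4% in cholangiocyte-like, 60.5% to 81.9% in mesothelial-like and 0% to 0.221% in hepatocyte-like cells.

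In all other kept cells summed, 9 of the 10 genes could be tested, and 1, Anxa4, was called, beside 14.1% of 13701 genes. Its log2 fold was -2.00 (SE 0.13, edgeR adjusted p = 0.0022), and it kept that call under each alternative that was run but the filter on UMIs (log2 fold -0.72). This sum is a mixture: macrophage-like cells were 35.7%, 35.8% and 40.5% of vehicle cells and 6.33%, 6.63% and 18.6% of ginkgetin cells, while endothelial-like cells were 17.6%, 14.8% and 8.10% against 34.9%, 43.8% and 27.7%. Fewer cells of a type and less RNA per cell cannot be told apart in such a sum.

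Within macrophage-like cells alone, Anxa4 was at 86.6, 68.2 and 85.3 CPM in vehicle and 62.5, 29.4 and 39.9 CPM in ginkgetin libraries. The groups did not overlap, and the log2 fold was -1.17 (SE 0.35, edgeR adjusted p = 0.101), not called beside 3.86% of 10645 genes. Of those 10645 genes, 866 were lower without overlap in ginkgetin libraries. With the replicate block Anxa4 was called (log2 fold -1.26, edgeR adjusted p = 0.0075), beside 9.7% of genes in that fit. Of 12 alternatives 3 called it, the others being the barcode-set block and DESeq2, beside 10.2% and 5.22% of genes. The 9 macrophage markers of the same sums were also lower in ginkgetin libraries without overlap (27222 to 32676 CPM in vehicle, 16503 to 23331 CPM in ginkgetin), and the 8 endothelial markers were higher (153 to 165 against 492 to 1204 CPM). Dendritic markers were lower too (4909 to 6312 against 2534 to 4860 CPM), and T cell (5.10 to 9.36 against 29.7 to 37.2 CPM) and NK cell markers (4.93 to 18.8 against 22.6 to 81.5 CPM) were higher, as were mast cell and mesothelial markers at no more than 13.2 CPM, each without overlap. The part of these differences in the Anxa4 values was not tested. Different clusters held this class in the groups: clusters with Kupffer or Gpnmb and Trem2 genes were mostly of vehicle cells, and the Marco and Timd4 cluster came almost whole from ginkgetin replicate 3. Krt7 was at 0.780, 0.460 and 0.680 CPM against 2.12, 1.80 and 3.402 CPM in these cells, on 50 UMIs in all (log2 fold 1.56, edgeR adjusted p = 0.085). Of 8 alternatives the barcode-set block alone called it (adjusted p = 0.049), beside 10.2% of genes. In endothelial-like cells, Anxa4 was at 27.2, 28.1 and 20.9 CPM against 14.7, 20.4 and 23.1 CPM, with overlap.

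**Figure D5:**
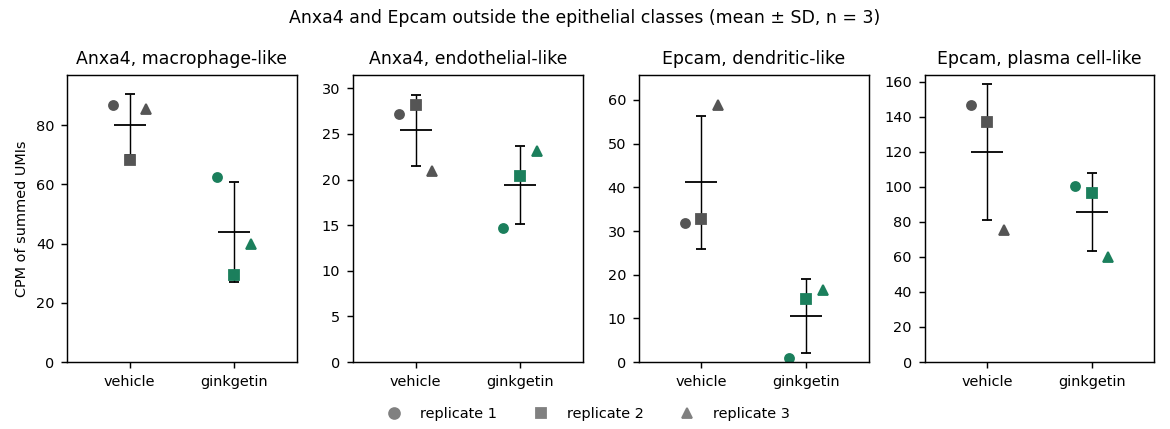
CPM of Anxa4 in macrophage-like and endothelial-like cells and of Epcam in dendritic-like and plasma cell-like cells, with 1 point per library, the mean as a line and the SD as a bar (n = 3 per group). Macrophage-like Anxa4 and dendritic-like Epcam are lower without overlap in ginkgetin libraries, at 29.4 to 62.5 and 0.904 to 16.4 CPM.

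Epcam was also measured in blood-derived cells. Plasma cell-like cells had 146, 137 and 75.1 CPM in vehicle and 100.4, 96.3 and 59.99 CPM in ginkgetin libraries, with overlap (log2 fold -0.73, SE 0.22, edgeR adjusted p = 0.360), beside 0% of 5949 genes called. Dendritic-like cells, some of which are known to carry Epcam, had 31.9, 32.8 and 58.8 CPM against 0.904, 14.4 and 16.4 CPM, without overlap (log2 fold -1.96, SE 0.57, edgeR adjusted p = 0.190), beside 0% of 8899 genes called. Of those 8899 genes, 938 were lower without overlap in ginkgetin libraries. Under the replicate block dendritic-like Epcam was called (log2 fold -2.04, edgeR adjusted p = 0.020), beside 3.08% of genes in that fit. Of 12 alternatives 3 called it, the others being the barcode-set block and DESeq2, beside 3.54% and 0.786% of genes. In these sums the endothelial markers were higher (113 to 164 CPM in vehicle, 313 to 936 CPM in ginkgetin) and the macrophage markers lower (1259 to 1382 against 557 to 773 CPM) without overlap, as were the NK cell markers (236 to 386 against 147 to 197 CPM), while the other lists, the dendritic markers among them, overlapped. The highest Scrublet scores took 2.41%, 1.82% and 1.875% of dendritic-like cells in vehicle and 18.3%, 8.64% and 8.98% in ginkgetin libraries. The part of these cells and of the marker differences in the Epcam values was not tested. T cell-like cells had 2.57 to 11.5 CPM.

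Cell numbers of the epithelial classes overlapped between the groups. Cholangiocyte-like cells were 2.08%, 3.21% and 1.40% of kept cells in vehicle and 2.18%, 1.95% and 1.54% in ginkgetin libraries (exact permutation test, two-sided, p = 0.8, smallest possible 0.1). Hepatocyte-like cells were 0.765%, 3.15% and 5.46% against 0%, 0.173% and 4.78% (exact permutation test, two-sided, p = 0.5), where 0 of 3493 cells allows a share of up to 0.0859%.

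The genes whose pattern over the 11 named classes was most like the mean profile of the 10, by Pearson's r of log2 CPM, were 1700016C15Rik (0.991), Srrm4 (0.987), Bex4 (0.982), Chmp4c (0.981), Epha1 (0.981), Rbm20 (0.978), Dsg2 (0.977), Pdzk1ip1 (0.977), Eppk1 (0.974) and Fam160a1 (0.974). The 11 points share libraries and depth, so r is only a description. Of these, Dsg2, a desmosomal cadherin, and Pdzk1ip1 had the highest levels in cholangiocyte-like cells (log2 CPM 8.76 and 8.68). Eppk1, Srrm4, Rbm20 and 1700016C15Rik lay near the detection limit (1.98, 1.76, 1.51 and 1.49). Among the 10, Cldn3 had the r nearest to 1 (0.942) and Epcam the lowest (0.647).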

How the data were processed

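Single-cell libraries of liver non-parenchymal cells (10x Genomics Chromium, per the study's methods) were labelled as 3 vehicle and 3 ginkgetin replicates. The authors deposited 1 table per library of raw, unnormalized UMI counts (1 row per gene symbol, 1 column per cell barcode). The build given by the submitters' processing notes is GRCm38 (mm10), and the aligner and annotation are not given in the sources used here. One extraction protocol in the labels names a kit for bulk RNA. The study kept cells with 250 to 5000 UMIs. Here the limits 250 and 5000 were applied to genes per cell, with under 5% mitochondrial UMIs, because 664 of 812 cholangiocyte-like cells clustered without a filter had over 5000 UMIs, and the study's wording was run as an alternative.

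Cells were clustered with scanpy 1.11.5 (2000 variable genes, 30 principal components, 15 neighbours, Leiden resolution 1) without the 10 genes, and clusters were named from listed markers, a marker counting at 25% of cells with a UMI and 2 times the mean of all cells. A cluster with under 3 markers, a tie, other leading markers or leading cell-cycle genes stayed unnamed (3405 cells). The cluster with mesothelial markers was re-clustered at resolution 0.5, a step added after seeing the data. Scrublet called at most 0.192% of cells per library, so no doublets were removed in the main analysis, and as alternatives cells with a UMI of Ptprc, Kdr or Clec4f (167 of 557 cholangiocyte-like cells) or with the 5% highest Scrublet scores (48 of 52 mesothelial-like cells, seen after the data) were left out. Counts were summed per library and class (10 or more cells) and tested with edgeR 4.0.16 (TMM, filterByExpr, quasi-likelihood, group only, Benjamini-Hochberg over all genes tested). DESeq2 1.42.0 was an alternative. The edgeR step was tested on simulated data first. Shares were compared by exact permutation tests over libraries. CPM and shares carry counting error beside the spread shown, and limits from a count of 0 (3 counts) cover counting error only.

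Same-numbered vehicle and ginkgetin libraries deviated together from their group means in cholangiocyte-like sums (r = 0.580, 0.561 and 0.824 for replicates 1, 2 and 3, over 8852 genes), so blocked values are given where they change a call. Replicates 1 and 2 crossed correlated as highly (0.588 and 0.604), and each was negative with replicate 3. Deviations within a group cancel out, so these correlations are not independent and cannot decide on a pairing of replicates 1 and 2. Named genes were the 10, from each related list the called genes or else the 2 of lowest p, the 3 called genes of largest rise and of largest fall in cholangiocyte-like cells with 50 CPM or more in the higher group, and the 10 most like the mean profile. The 10 genes and the lists were chosen with earlier results of these data known. Coordinates are from GENCODE M21 and promoters from RefSeq, which held 8 of the 10 genes (not Krt19 or Sox9).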

Additional observations from a re-analysis of the deposited data

Results flagged for a closer look

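Krt7 differed in opposite directions between classes, with every library of one group on one side in each: by -70.1 CPM (ginkgetin minus vehicle, means over 3 libraries each) in cholangiocyte-like cells, but by 3.18 CPM in dendritic-like, 1.80 CPM in macrophage-like and 0.623 CPM in T cell-like cells. The unnamed cells were higher in every ginkgetin library too, at a mean of 1.08 against 0.218 CPM. Opposite differences without overlap were the rule by which Krt7 was picked for this section. As a background, 938 of 7928 genes tested were lower without overlap in ginkgetin cholangiocyte-like cells. Higher without overlap were 789 of 8899 genes in dendritic-like, 2404 of 10645 in macrophage-like and 406 of 9253 in T cell-like cells. The difference of Krt7 between the classes was not tested. The cholangiocyte-like value rests largely on vehicle replicate 3 (313 CPM): the mean of vehicle replicates 1 and 2 was 153 CPM against 136 CPM over the ginkgetin libraries, and the log2 fold went from -0.57 to -0.17 without it. The dendritic-like, macrophage-like and T cell-like values rest on 26, 50 and 5 UMIs, T cell-like cells had none in the vehicle libraries, and only the barcode-set block called the macrophage-like difference. Macrophage-like and dendritic-like sums held more endothelial markers in ginkgetin libraries (492 to 1204 CPM against 153 to 165 CPM, and 313 to 936 CPM against 113 to 164 CPM), whose part was not tested.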

How the results depend on the processing

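Of 388 refits of a log2 fold of the 10 genes, 356 kept direction and call, 14 gained a call, 1 lost it and 17 changed sign. The count of genes called in cholangiocyte-like cells, 14, became 191 with the replicate block, 202 with the barcode-set block, 84 with DESeq2, 23 with no gene filter, 123 in replicates 1 and 2 alone and 31 with no cell filter, and 0 to 14 when 1 library was left out (0 without vehicle replicate 1 or 2 or ginkgetin replicate 1 or 2). That in hepatocyte-like cells, 0, became 176, 133, 97 and 195 with the replicate block, the barcode-set block, DESeq2 and no gene filter, and stayed 0 in each fit without 1 library. That in all other kept cells, 1930, became 0 with the filter of 250 to 5000 UMIs and 777 to 1718 without 1 library. The 1 call among the 10 genes in these 3 fits became 4 with DESeq2 (Krt8 in cholangiocyte-like cells at a log2 fold of -1.07, Krt8 and Krt18 in hepatocyte-like cells at -1.43 and -1.92, and Anxa4), 3 with the barcode-set block and with no gene filter (there Krt8 and Krt18 in hepatocyte-like cells, and Anxa4), 0 with the UMI filter, and stayed 1 without each single library. The cause of these moves was not tested. Direction turned for Cldn7 in cholangiocyte-like cells (0.046 in replicates 1 and 2 alone, 0.0086 with no cell filter, -0.27 to 0.015 without 1 library), for Cldn3 in hepatocyte-like cells (-0.85 with no cell filter, -1.65 without doublet candidates, -1.48 to 1.90 without 1 library) and Anxa4 there (0.034 with the UMI filter), and in all other kept cells for Krt8 and Krt18 (0.34 and 0.42 in replicates 1 and 2 alone), Krt18 without doublet candidates (0.049) and Cldn3 (-0.10 with the UMI filter). Without 1 library the other-cell log2 folds ran from -0.31 to 0.50 for Krt7, -0.88 to 0.21 for Krt8, -0.64 to 0.30 for Krt18, -0.32 to 0.88 for Sox9 and -0.85 to 0.87 for Cldn3. The share of cholangiocyte-like cells differed by -0.34 percentage points between groups, by 0.14 with the UMI filter, and by -0.75 to 0.15 without 1 library, and edgeR on cell numbers with the replicate block gave a log2 fold of -0.18. That of hepatocyte-like cells ran from -3.04 to -0.31 points without 1 library. The replicate block changed no call of the 10 genes in the cholangiocyte-like, hepatocyte-like and other fits. The UMI filter left too few vehicle cholangiocyte-like cells for a fit, and Cftr, at 126 UMIs, and the hepatocyte-like values of ginkgetin replicate 2 are limited by depth.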
